A study of Mus musculus with 8 samples.

Results

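The genes described here act in the making, uptake, sensing and breakdown of serotonin and noradrenaline. Some mark the brainstem neurons that release them, while Htr2a and Htr2c are receptors of target neurons and Maob is also abundant in astrocytes. The list held 10 genes: Tph2, Slc6a4, Fev, Htr1a, Htr1b, Htr2a, Htr2c, Dbh, Slc6a2 and Maob. A gene was followed through the probe sets (groups of probes for 1 transcript) annotated with that symbol alone, and the probe set with the highest mean over the 8 arrays would have stood for it. Of the 10 genes, 9 were measured, out of 19938 genes with such a probe set, and each of the 9 had exactly 1. Fev, the transcription factor that marks serotonin neurons from their birth, carried no probe set under that symbol in the annotation used and was not analysed here. The genes were chosen by their role and with earlier results of these arrays in view, including the early log2 difference of Tph2 between ethanol and saline, and the probe set was to be selected on its mean level, so the early values of Tph2 describe these arrays and support nothing beyond them.

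Whole brains were taken from C57BL/6J males killed as adults at postnatal day 70, and RNA was hybridised to 8 Affymetrix Mouse Gene 1.0 ST arrays. Ethanol-exposed mice were born to dams given 2 injections of 2.5 g/kg ethanol, 2 hours apart, on each of gestational days 8 and 11 (early exposure) or 14 and 16 (late exposure). Control mice were born to dams given saline on the same days. Each of the 4 groups had 2 arrays and each array held pooled RNA of 3 males from different litters, so a p-value measures the spread between pools.

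Serotonin neurons lie in the raphe nuclei and noradrenaline neurons mainly in the locus coeruleus, small cell groups of the brainstem whose axons reach most of the brain. Tryptophan hydroxylase 2 (Tph2) starts serotonin synthesis, the transporter Slc6a4 returns serotonin to the neuron, and Htr1a and Htr1b act partly as inhibitory autoreceptors on those neurons and partly as receptors on their target cells. Dopamine beta-hydroxylase (Dbh) turns dopamine into noradrenaline, Slc6a2 takes noradrenaline back up, Htr2a and Htr2c are receptors on target neurons, and the mitochondrial monoamine oxidase Maob breaks monoamines down. Raphe and locus coeruleus cells make up a very small share of a whole brain, and in such bulk RNA fewer cells of a type and less RNA per cell cannot be told apart.

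Signal was judged against 1210 probe sets of olfactory and vomeronasal receptors, genes used mainly in the nose. Their 95th percentile was 6.47 and 6.48 in the early ethanol arrays, 6.41 and 6.55 in the early saline arrays, 7.70 and 7.28 in the late ethanol arrays, and 7.36 and 7.50 in the late saline arrays, on the log2 scale of the deposited values. The 4 late arrays had higher medians (7.21 to 7.30) than the 4 early ones (6.74 to 6.84), and levels are therefore compared within a timing only. By this measure 7 of the 9 genes had a mean above background in the early arrays and 5 in the late arrays. With the background placed at percentile 75 of those receptors, 7 were above it in each timing, with Tph2 and Slc6a4 added late. Defining markers of the labelled tissue were present: all 8 pan-neuronal genes and all 10 astrocyte genes examined lay above background in both timings.

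No member passed an adjusted p of 0.05 in limma after either exposure, nor did any other of the 23410 probe sets (0% called early, 0% late, and 0% for the early minus the late effect). At an unadjusted p under 0.05, 401 probe sets were called early, 583 late and 483 for the difference between the timings. Without moderation of the variances 797 were called early and 740 late before adjustment, and 0 in either timing after it. Before adjustment, limma called Tph2 alone of the members early and 0 late, where the unmoderated test called Dbh, at under 1.2-fold. The study used looser limits, a fold of 1.2 together with a p-value below 0.05 before adjustment. By these limits 1 member was called higher early, Tph2, against a background of 0.278% of probe sets called higher and 0.645% called lower. Of the late values, 0 members were called, against 0.44% called higher and 0.722% called lower (103 and 169 probe sets). Quantile normalisation over all 8 arrays changed the early split to 31 higher and 139 lower, against 65 and 151 as deposited, and the use of every probe set, named or not, changed it to 342 and 327. Late, every probe set gave 377 higher and 297 lower, which turns the split round. The early differences of the 9 genes ran between -0.16 and 0.33 with a median of -0.056, beside a median of -0.020 over all probe sets tested. The late ones ran between -0.13 and 0.17 with a median of -0.043, beside -0.0067 over all. In each timing 4 members were higher and 5 lower in ethanol than in saline. Over all probe sets tested, 40.2% were higher early and 47.3% late. Both ethanol arrays lay above both saline arrays for 1 member early (7.5% of all probe sets) and for 1 late (12.7%), and below both for 3 early (18.9%) and for 3 late (15.7%).

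**Figure D1:**
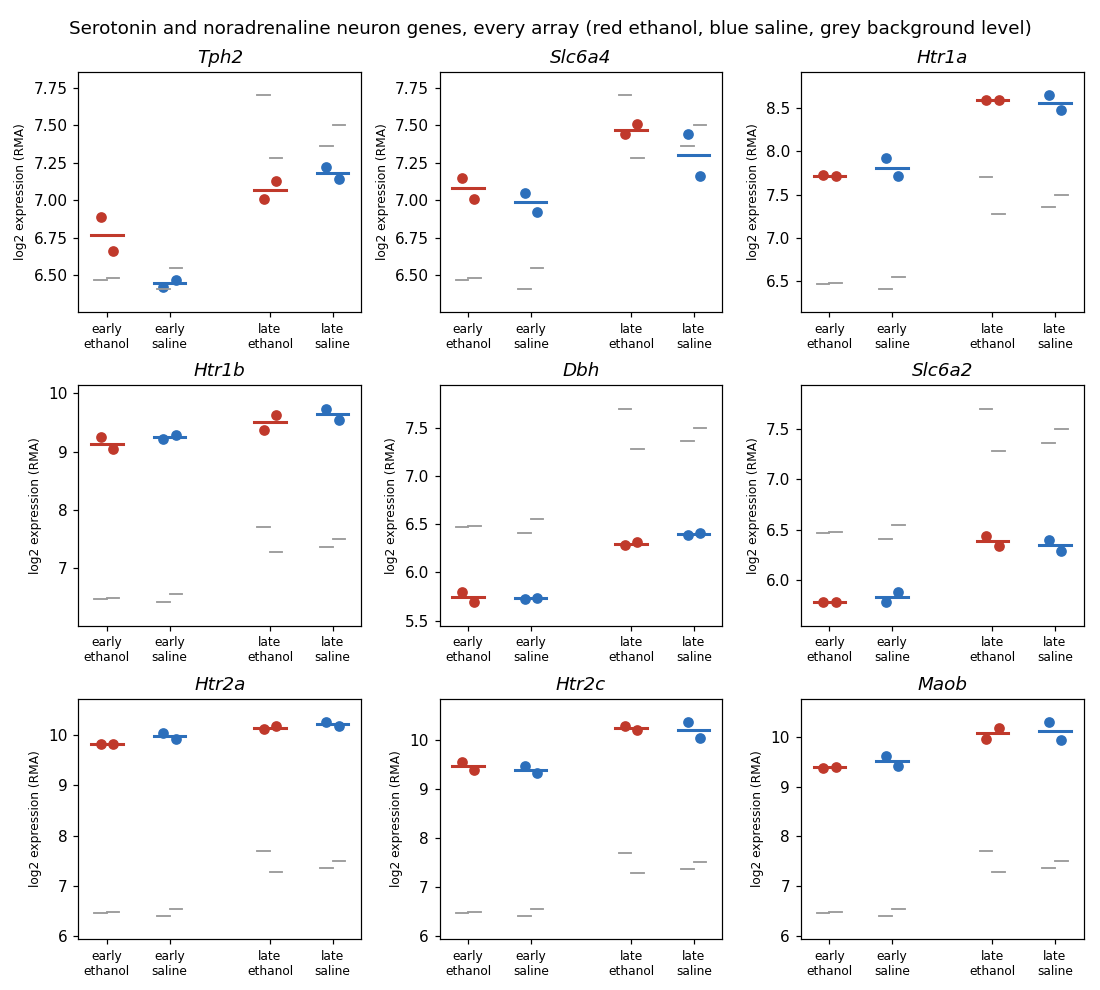
Log2 expression of the 9 measured genes in every array. Points are arrays (each a pool of 3 mice), coloured lines group means, and short grey lines the background level of each array; levels are compared within a panel and a timing only. Tph2 was the only member whose early ethanol arrays (6.89 and 6.66) stood above the early saline arrays (6.42 and 6.47), while Dbh and Slc6a2 lay below background in every array.

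Tph2 was the member that differed most between the groups, and it did so after early exposure. Its probe set read 6.89 and 6.66 in the early ethanol arrays, against 6.42 and 6.47 in the early saline arrays (means 6.77 ± 0.16 and 6.45 ± 0.037, SD, n = 2 each). Both ethanol arrays were thus above both saline arrays, by 0.33 log2 units on average (SE 0.10, 95% confidence interval 0.10 to 0.56), which is 1.26-fold (1.07- to 1.47-fold). The adjusted p in limma was 1. These levels were low: both ethanol arrays and 1 of the 2 saline arrays lay above their background, and with receptor probe sets of several symbols included in the background the early mean of Tph2 was no longer above it. Ethanol replicate 1 carried much of the difference, since without that array it was 0.21 with an unadjusted limma p of 0.093. An unmoderated test on the 4 early arrays, which the study's methods name as analysis of variance, left Tph2 short of the thresholds (unadjusted p = 0.11).

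After late exposure Tph2 ran the other way and at background. It read 7.01 and 7.13 in the late ethanol arrays, against 7.22 and 7.14 in the late saline arrays. Both ethanol arrays were lower, by a mean log2 difference of -0.12 (SE 0.10, -0.34 to 0.11), and no late array stood above its background. The early effect minus the late effect was 0.45 (SE 0.14, 0.12 to 0.77), with an adjusted p of 1 in limma, and leaving out early ethanol replicate 1 reduced it to 0.33.

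Slc6a4, the serotonin transporter made by the same raphe neurons, did not separate the early groups. It read 7.15 and 7.01 in early ethanol arrays, against 7.05 and 6.92 in early saline arrays, all above background. The groups overlapped, with a log2 difference of 0.10 (SE 0.11, -0.16 to 0.35). In the late arrays it read 7.44 and 7.51 with ethanol, against 7.44 and 7.16 with saline. The ethanol values there were above the saline values by a narrow margin at the top, the log2 difference was 0.17 (SE 0.11, -0.081 to 0.43), and the late mean lay at background. The value depended on either saline array: without late saline replicate 1 it was 0.31 and passed the study's thresholds, so the count of late members called moved to 1, and without late saline replicate 2 it was 0.036. The early difference ran between 0.026 and 0.17 with 1 array left out. The interval of the early difference of Slc6a4 includes the 0.33 measured for Tph2, so the arrays do not show that the pair behaved differently.

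The 300 bases around the start sites of Tph2, Slc6a4 and Dbh are printed because these 3 genes define the transmitter of their neurons (RefSeq, GRCm38.p6, 250 bases before the start and 50 after it, gene strand, 5′ to 3′). Of the 10 members, 8 matched a RefSeq promoter. In Tph2 and Slc6a4 capitals mark GGAAG or its reverse complement CTTCC, the core of sites for ETS factors such as Fev, and GATAA or TTATC, the core of sites for Gata2 and Gata3. In Dbh capitals mark ATTA or TAAT, the homeodomain core that Phox2 proteins bind.
Tph2, minus strand, chr10:115184973-115185272: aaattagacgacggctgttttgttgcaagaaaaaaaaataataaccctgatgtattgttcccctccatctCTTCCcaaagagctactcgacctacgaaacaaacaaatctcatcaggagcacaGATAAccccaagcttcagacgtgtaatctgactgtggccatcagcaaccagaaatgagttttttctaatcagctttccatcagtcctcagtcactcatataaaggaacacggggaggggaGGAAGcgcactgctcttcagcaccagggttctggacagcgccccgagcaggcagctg
Slc6a4, plus strand, chr11:76998347-76998646: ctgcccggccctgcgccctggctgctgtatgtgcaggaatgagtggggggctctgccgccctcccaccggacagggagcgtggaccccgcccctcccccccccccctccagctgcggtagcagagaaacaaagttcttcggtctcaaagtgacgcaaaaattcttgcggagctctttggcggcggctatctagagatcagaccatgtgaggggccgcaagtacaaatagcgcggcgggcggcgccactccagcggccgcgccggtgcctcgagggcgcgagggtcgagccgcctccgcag
Dbh, plus strand, chr2:27165257-27165556: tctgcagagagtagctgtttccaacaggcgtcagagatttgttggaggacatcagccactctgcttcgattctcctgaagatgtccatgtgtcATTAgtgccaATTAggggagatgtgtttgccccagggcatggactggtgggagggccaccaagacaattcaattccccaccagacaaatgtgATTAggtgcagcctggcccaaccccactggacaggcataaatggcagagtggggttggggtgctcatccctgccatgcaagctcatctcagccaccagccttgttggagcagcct

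The Tph2 window held 2 matches to GGAAG and 1 to GATAA, the Slc6a4 window 0 of either, and the Dbh window 3 to ATTA and 0 to the others. Copies of ATTA, not marked there, numbered 4 in Tph2 and 0 in Slc6a4. No marked match overlapped another. On either strand, 71.4% of 32851 RefSeq promoters of that length held GGAAG, 25.4% held GATAA and 34.1% held at least 2 copies of ATTA, so such matches are common. GC content was 47.3% in the Tph2 window, 67.7% in that of Slc6a4 and 54.0% in that of Dbh. The matches are descriptions of letters, not of binding.

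The receptors that serotonin neurons also carry as autoreceptors lay clear of background and overlapped between the groups. Htr1a read 7.73 and 7.72 in early ethanol arrays, against 7.92 and 7.71 in early saline arrays (log2 difference -0.091, SE 0.10, -0.32 to 0.13). In the late arrays it read 8.59 and 8.59 with ethanol, against 8.65 and 8.48 with saline (0.027, SE 0.10, -0.20 to 0.25). In both timings the saline pair spread more widely than the ethanol pair and enclosed at least 1 ethanol value.

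Htr1b, a receptor of axon terminals, read 9.25 and 9.04 in early ethanol arrays, against 9.22 and 9.28 in early saline arrays. Its log2 difference was -0.10 (SE 0.12, -0.38 to 0.17). The late arrays read 9.38 and 9.63 with ethanol, against 9.74 and 9.54 with saline (-0.13, SE 0.12, -0.40 to 0.14). With 1 array left out the early value ran between -0.21 and -0.0026 and the late one between -0.26 and -0.0029. Groups overlapped in both timings, and the intervals leave room for a change past 1.2-fold downward but not for one upward.

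The noradrenaline genes gave no signal to compare. Dbh read 5.80 and 5.69 in early ethanol arrays, against 5.72 and 5.73 in early saline arrays, and 6.28 and 6.32 in late ethanol arrays, against 6.39 and 6.41 in late saline arrays. Slc6a2 read 5.78 and 5.78 in early ethanol arrays, against 5.78 and 5.88 in early saline arrays, and 6.44 and 6.34 in late ethanol arrays, against 6.40 and 6.29 in late saline arrays. Every one of these values was below the background of its array, also with the background placed lower, at percentile 75 of those receptors. The defining markers of noradrenaline neurons were therefore at background in all 8 whole-brain arrays, and the name of the list holds for its noradrenaline genes by symbol only. For Dbh the log2 differences were 0.018 early (SE 0.078) and -0.10 late (SE 0.078), where both ethanol arrays lay below both saline arrays. For Slc6a2 they were -0.056 early, where the ethanol arrays were the lower by less than the printed decimals show, and 0.040 late (SE 0.084 each). A change of these genes within the locus coeruleus was not detectable at this signal.

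The receptors of target neurons were among the well-measured members. Htr2a, the excitatory receptor of cortical pyramidal neurons, read 9.81 and 9.82 in early ethanol arrays, against 10.04 and 9.91 in early saline arrays. Both ethanol arrays were lower, and the log2 difference was -0.16 (SE 0.082, -0.35 to 0.030, adjusted p = 1 in limma). The late arrays of Htr2a had the same order at a smaller size, 10.11 and 10.17 with ethanol against 10.25 and 10.18 with saline (-0.074, SE 0.082, -0.26 to 0.11). Htr2a was the only member with a mean above background whose 2 ethanol arrays lay below its 2 saline arrays in both timings, and neither difference reached 1.2-fold. That order was held by 18.9% of all probe sets early and 15.7% late, and the share with it in both timings was not counted.

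Htr2c, a receptor also abundant in choroid plexus, read 9.56 and 9.39 in early ethanol arrays, against 9.47 and 9.32 in early saline arrays (0.079, SE 0.12, -0.20 to 0.36). It read 10.29 and 10.21 in late ethanol arrays, against 10.37 and 10.04 in late saline arrays (0.045, SE 0.12, -0.24 to 0.33). The groups overlapped in both timings. Of 10 choroid plexus genes measured, 4 were higher and 6 lower early and 5 were higher and 5 lower late. Ttr, the transthyretin of that tissue, read 13.05 and 13.04 in early ethanol arrays, against 13.27 and 12.83 in early saline arrays. Otx2, a transcription factor of that tissue, was the 1 that passed the study's thresholds, late, with 8.00 and 8.30 in ethanol arrays, against 8.47 and 8.40 in saline arrays (-0.29, SE 0.11). Without late ethanol replicate 1 (-0.14) or late saline replicate 1 (-0.25) it no longer passed, nor did it in the fit to the 4 late arrays alone or in the unmoderated test. The part of choroid plexus in the Htr2c values was not tested.

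Maob, abundant in astrocytes as well as in serotonin neurons, read 9.38 and 9.40 in early ethanol arrays, against 9.62 and 9.42 in early saline arrays. Both ethanol arrays were lower by a small margin, with a log2 difference of -0.13 (SE 0.14, -0.44 to 0.19) that ran between -0.23 and -0.031 with 1 array left out. In the late arrays Maob read 9.95 and 10.18 with ethanol, against 10.29 and 9.93 with saline (-0.043, SE 0.14, -0.36 to 0.27), and the groups overlapped. Of the 10 astrocyte genes, 4 were higher and 6 lower early (median -0.0087), and 1 was higher and 9 lower late (median -0.079). Gfap, the astrocyte intermediate filament, read 9.04 and 9.06 in early ethanol arrays, against 9.09 and 8.79 in early saline arrays. The part of astrocytes in the Maob values was not tested.

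**Figure D2:**
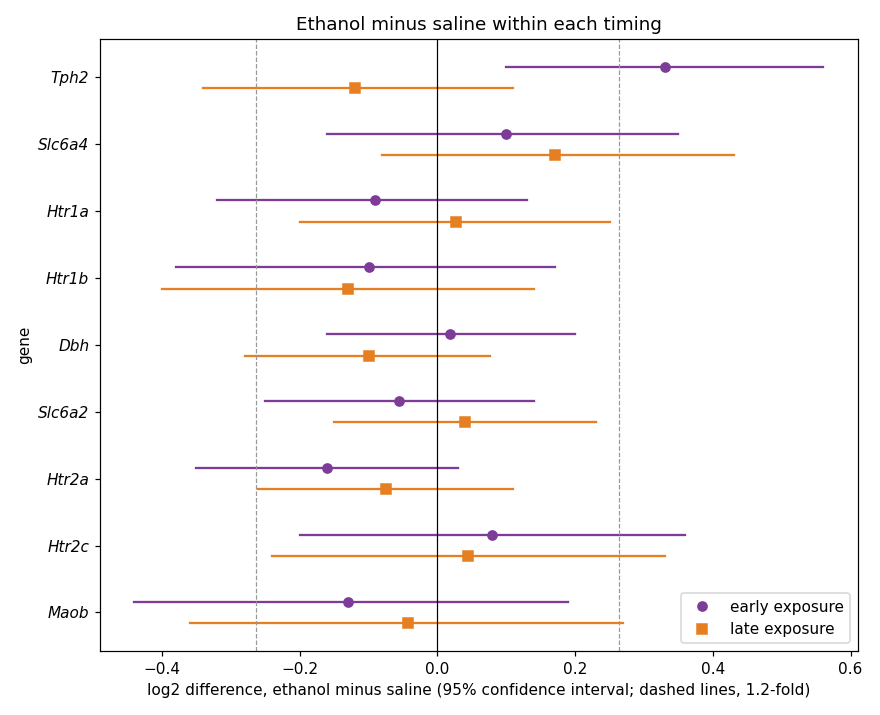
Log2 difference, ethanol minus saline, of each measured gene after early (circles) and late (squares) exposure, with its 95% confidence interval from the limma fit; dashed lines mark 1.2-fold. The early interval of Tph2 (0.10 to 0.56) was the only one that did not include 0.

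The other 8 members differed little in their effect between the timings, with early minus late values between -0.12 (Htr1a) and 0.12 (Dbh), unadjusted limma p between 0.31 and 0.88. These intervals are wide, and values for a pair of timings that each rest on 2 arrays against 2 do not show that the effects were alike.

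Early ethanol replicate 1 stood at an end of the range for most members, in both directions. It was the highest of the 4 early arrays for 4 of the 9 members (Tph2, Slc6a4, Htr2c and Dbh, the last of these below background) and the lowest for 3 (33.3%, beside 23.8% of all probe sets of 1 symbol). It was also the highest for 10 of 18 hindbrain genes (55.6%, beside 21.9% of all probe sets of 1 symbol) and the lowest for 7 of 12 genes of olfactory bulb and nasal tissue. Only Slc6a5, Hoxb3 and Slc5a7, 3 of those 18 hindbrain genes, had an early mean above background. Slc6a5, the glycine transporter of brainstem and spinal neurons read 10.27 and 9.86 in early ethanol arrays, against 9.87 and 9.92 in early saline arrays. The other 3 arrays lay within 9.86 to 9.92, and the difference of 0.17 was -0.036 without replicate 1. Slc18a2, the vesicle transporter that every monoamine neuron uses, had the same shape: 7.79 and 7.34 in early ethanol arrays, against 7.43 and 7.45 in early saline arrays. Its difference of 0.12 was -0.10 without replicate 1. The Tph2 value, as given above, was 0.21 without that array and no longer passed. Pan-neuronal genes, all 8 above background, were higher in 6 and lower in 2 early (median 0.072) and lower in all 8 late (median -0.061), the same directions as Tph2 in each timing, and 0 passed the study's thresholds. Early ethanol replicate 1 was the highest for 5 of these 8 and early saline replicate 2 the lowest for 7. Nefl, a neurofilament gene, read 12.51 and 12.40 in early ethanol arrays, against 12.35 and 12.16 in early saline arrays (0.20). The part of overall neuronal content in the Tph2 values was not tested.

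Genes of the olfactory bulb and nasal tissue also differed between the early groups. All 12 of this list differed between the early groups without overlap, 3 higher (Bpifb9a, Bpifb9b and Obp2a, of nasal tissue) and 9 lower. Over all probe sets, 7.5% lay higher and 18.9% lower without overlap. Of the 12, 10 passed the study's thresholds, beside 0.278% of all probe sets called higher and 0.645% called lower. Late, 9 of the 12 overlapped and 1 passed. The list was chosen with earlier results of these arrays known, so its early counts describe that choice and support nothing beyond it. Omp, of olfactory sensory neurons, read 6.75 and 7.05 in early ethanol arrays, against 7.39 and 7.73 in early saline arrays (-0.66, SE 0.14). Cdhr1, of mitral and tufted cells, read 6.27 and 7.12 with ethanol, against 7.47 and 7.57 with saline (-0.83, SE 0.23). The Cdhr1 value was -0.40 without ethanol replicate 1 and -1.25 without ethanol replicate 2, and the unmoderated test called neither Omp nor Cdhr1. The part of these olfactory bulb differences in the Tph2 values was not tested. Nor was that of the hindbrain genes, which as a list had no common early direction (10 higher, 8 lower, median 0.00089). Aanat, which defines the pineal gland, a serotonin-rich tissue, was at background in both timings.

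**Figure D3:**
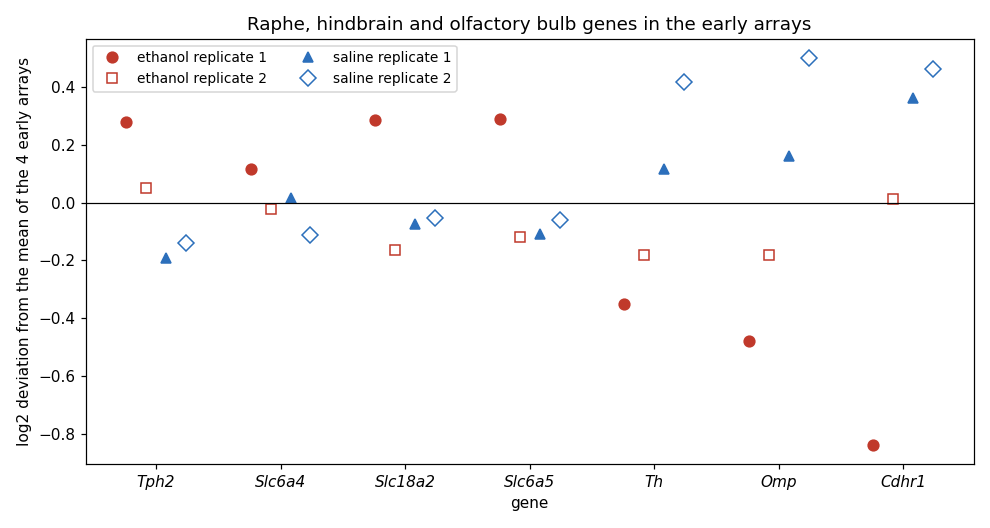
Log2 deviation of 7 genes in each of the 4 early arrays (red, ethanol; blue, saline; filled, replicate 1; open, replicate 2) from their mean. Ethanol replicate 1 was highest for Tph2, Slc6a4, Slc18a2 and Slc6a5 and lowest for Th, Omp and Cdhr1; ethanol replicate 2 lay above both saline arrays for Tph2 alone of the first 4.

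In the late arrays, saline replicate 1 was the highest of 4 for 6 of the 9 members and saline replicate 2 the lowest for 5. Over all probe sets of 1 symbol saline replicate 1 was the highest in 38.5% and saline replicate 2 the lowest in 36.6%. Each was the largest such share of the late arrays, so the wide saline pair was not particular to the members. For Htr1a, Htr2c and Maob the saline pair enclosed both late ethanol values. Both late ethanol arrays lay below the saline pair for 3 members and above it for 1.

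The pattern over the 8 arrays, after the mean of each timing was subtracted, was compared between probe sets by the root mean square difference, over 21788 others. Tph2 was nearest to C2cd2 (0.049), Dmac2 (0.056) and Lgi3 (0.057), against a root mean square of 0.14 for the deviations of Tph2 itself. Slc6a4, with which it shares its neurons, ranked 6172 (0.15). Among the members Dbh ranked 1220 (0.12) and Htr2c 4580 (0.14). A probe set with no deviations would lie at 0.14 from Tph2, so these ranks do not show a shared pattern. In the 4 late arrays Tph2 lay at background, as Dbh did in all 8, so these ranks draw partly on values without signal. Slc6a4 was nearest to Sugp1 (0.027), Tex16 (0.035) and Myo9a (0.035), with Htr2c at rank 90 (0.060) the nearest member. Dbh was nearest to Nefm (0.017), Rab8b (0.018) and Sfswap (0.018), against 0.048 for the deviations of Dbh itself, which lay at background.

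Other genes of the serotonin pathway were counted by direction, beside 40.2% of all probe sets tested that were higher early and 47.3% late. Of the 10 other serotonin receptors measured, 2 were higher and 8 lower early (median -0.057) and 8 were higher and 2 lower late (median 0.073), while 3 of the 10 (Htr1f, Htr4 and Htr5a) had a mean above background in each timing. Htr5a, an inhibitory serotonin receptor, was the 1 that passed the study's thresholds early, with 8.07 and 7.99 in ethanol arrays, against 8.35 and 8.32 in saline arrays (-0.31, SE 0.10, adjusted p = 1 in limma). Without early ethanol replicate 2 (-0.27) or early saline replicate 1 (-0.29) it no longer passed. The unmoderated test on the 4 early arrays also called Htr5a before adjustment (unadjusted p = 0.022). Late, 0 of these receptors passed. Of 9 adrenergic receptors, 2 had a probe set of their own symbol alone, Adra1b and Adra2c, and 0 passed in either timing.

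Of 13 measured genes of monoamine synthesis, storage and breakdown, 4 were higher and 9 lower early (median -0.058) and 2 were higher and 11 lower late (median -0.051). Th, tyrosine hydroxylase, which starts dopamine and noradrenaline synthesis and is also made by olfactory bulb cells, was the 1 that passed, with 8.43 and 8.60 in early ethanol arrays, against 8.90 and 9.20 in early saline arrays (-0.53, SE 0.13, adjusted p = 1 in limma). The unmoderated test did not call it. Th is itself 1 of the 12 olfactory bulb and nasal genes counted above, so its value is part of those counts. The part of olfactory bulb cells in the Th values was not tested. Dbh, the next enzyme but one towards noradrenaline, was at background. The transcription factors of raphe and locus coeruleus were mostly at background, with 4 of 14 above it early (En2, Tfap2b, Insm1 and Pou3f2). Of these 14, 4 were higher and 10 lower early and 9 were higher and 5 lower late, and 0 passed the thresholds in either timing. Hindbrain genes were higher in 10 and lower in 8 of 18 early (median 0.00089), and higher in 14 and lower in 4 late (median 0.061), with 3 of the 18 above background in each timing. Other lists at background were also mostly higher late, with 8 of 8 ependyma genes and 6 of 7 pineal genes higher and 0 of either above background. The shares of all probe sets tested that were higher were 40.2% early and 47.3% late.

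**Figure D4:**
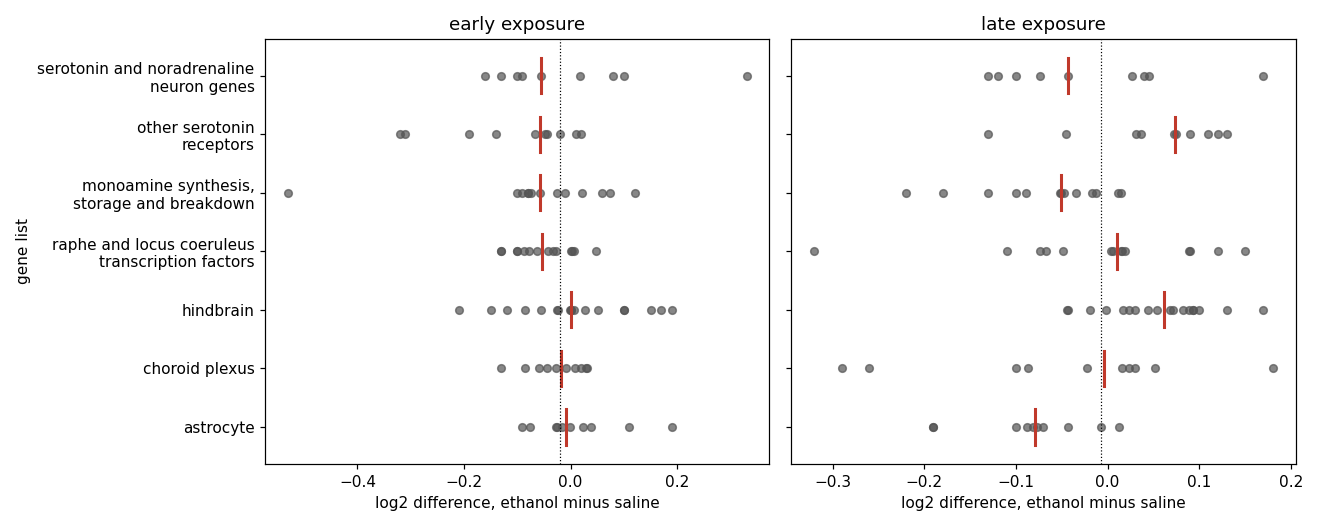
Log2 difference, ethanol minus saline, of each gene (points) in 7 lists after early and late exposure; red bars are list medians and the dotted line the median of all probe sets tested (-0.020 early, -0.0067 late). The early Tph2 value of 0.33 stood apart from the other 8 members, which lay between -0.16 and 0.10.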

How the data were processed

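The authors deposited 1 log2 value per probe set and array, made by RMA with quantile normalisation and GC adjustment in Partek (version 6.6 in the submitters' notes, an earlier one in the methods). No source used here describes how the late arrays were processed; the same steps were assumed, and the values look as if each timing was normalised apart. The build and annotation version were not given in the sources used here. Of 35556 probe sets, 12146 without a symbol were left out and 23410 tested.

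Ethanol and saline were compared within each timing with limma 3.58.1 under R 4.3.3, fitting 4 group means to 8 arrays, with moderated variances and Benjamini-Hochberg adjustment over all 23410 probe sets; the code was tested on simulated data. Members and gene lists were chosen with earlier results of these data known, and no list was tested. The genes named are all members, listed genes past the study's thresholds or defining other cell types, and the 3 probe sets nearest to Tph2, Slc6a4 and Dbh. Slc18a2 and Nefl were chosen after their values were seen. Alternatives were other normalisations, filters, fits, background levels and each array left out.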

Additional observations from a re-analysis of the deposited data

Results flagged for a closer look

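The effect of ethanol on Tph2 differed between the timings at an unadjusted limma p of 0.013. Its log2 difference was 0.33 after early exposure and -0.12 after late exposure, and the early minus the late effect was 0.45 (SE 0.14, 95% confidence interval 0.12 to 0.77). The adjusted p over 23410 probe sets was 1. Tph2 was 1 of 9 members examined and had been listed with its early value known. Its value was above background in 3 of 4 early arrays and in 0 of 4 late arrays, and without early ethanol replicate 1 the value was 0.33 with an unadjusted p of 0.052. A timing difference of this size was not particular to Tph2. The serotonin receptor Htr5a, not a member, had a mean above background in each timing and ran the opposite way. Its log2 difference was -0.31 early and 0.12 late, an early minus late effect of -0.43 (SE 0.14, 95% confidence interval -0.74 to -0.12). No group had the 4 arrays needed to look for single arrays far from the rest.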

How the results depend on the processing

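With 2 arrays a group and levels near background for Tph2, Slc6a4 and most raphe genes, small differences could not be told from the spread. No difference of any size passed adjustment, so no fold marks a limit of detection here. Counts of probe sets past the study's thresholds were 216 early, 272 late and 465 for the early minus the late effect. They were 669, 674 and 854 with every probe set, named or not, and 60 early and 58 late in the unmoderated test, in which 0 members passed early. No label ties replicate numbers to a shared litter or day, and deviations of same-numbered arrays correlated at 0.466 early and -0.464 late, so the arrays were not treated as pairs. With a replicate block the counts were 229, 354 and 582. With the late saline numbers crossed, an alternative chosen after seeing the data, the replicate block gave 564, 519 and 1099. Leaving out 1 array gave 210 to 781 early, 242 to 1750 late and 233 to 1284 for the difference, and 0 to 1 members called in each timing. Early, the counts were 408 without ethanol replicate 1, 564 without ethanol replicate 2, 426 without saline replicate 1 and 781 without saline replicate 2. Late, they were 1750 without ethanol replicate 2 and 875 without saline replicate 1; for the difference, 1284 and 1082 without those late arrays, 790 without early saline replicate 1 and 233 without late saline replicate 2.

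Cyclic loess and quantile normalisation over all 8 arrays turned the sign of 3 late values near 0: Slc6a2 (-0.0011 and -0.0026), Maob (0.0086 and 0.0070) and Slc6a5 (0.0086 and 0.018). Leaving out 1 array turned the sign of values with overlapping groups, whose ranges were: Htr1a, -0.20 to 0.015 early and -0.056 to 0.11 late; Dbh, -0.040 to 0.076 early; Slc6a2, -0.013 to 0.094 late; Htr2c, -0.0027 to 0.16 early and -0.12 to 0.21 late; Maob, -0.23 to 0.14 late; Slc18a2, -0.10 to 0.35 early and -0.20 to 0.10 late; Slc6a5, -0.036 to 0.37 early; Ttr, -0.23 to 0.21 early and -0.23 to 0.028 late; Gfap, -0.037 to 0.26 early; Aanat, -0.10 to 0.057 early. Tph2 kept its early sign without any 1 array (0.21 to 0.44), which was fixed in advance because its early groups did not overlap. The cause of these changes was not tested. Of 304 single-gene values under other settings, 291 kept direction and side of the threshold, as did 113 of 140 with an array left out, where 16 reversed, 6 fell short of the threshold and 5 newly passed it. Other probe sets of a member gave no value, since each had 1.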
